A study of Mus musculus with 5 samples.

Results

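The 9 genes described here encode proteins that coat lipid droplets, restrain or carry out lipolysis, and bring fatty acids into the cell and its mitochondria: Plin2, Plin3, Hilpda, Angptl4, Lpl, Cd36, Cpt1a, Slc25a20 and Pnpla2. They were taken from the deposited gene table by symbol, and all 9 were found among its 45777 genes. All 9 passed the filter on low counts, as did 15462 genes in all. Libraries of poly-A RNA came from MG5, a mouse microglial cell line labelled wild type, grown in medium conditioned by astrocyte-like A1 cells. The values below come from 1 library of cells given 10 µM 6OHA for 6 h, 3 libraries of cells given 10 µM bexarotene (BEX) for 6 h, and 1 library of untreated cells, for which the labels name no vehicle. Of the 3 samples that the study describes in each group, the remaining 6OHA and untreated ones are not analysed here. 6OHA is the code name of an agonist of the retinoid X receptor (RXR), and BEX is an approved RXR agonist drug, so the design asks how each agonist changed these genes and where the agonists differed. MG5 is a single line, and the labels do not say whether replicates came from separate cultures. The p-values therefore reflect the spread between these libraries, which may be technical.

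RXR is a nuclear receptor that binds DNA as a partner of other receptors, among them the peroxisome proliferator-activated receptors (PPARs). A PPAR and RXR pair sits on direct repeats of a hexamer spaced by a single base (DR1 elements), and an RXR ligand alone can switch the pair on. Many genes of fatty acid storage, uptake and oxidation are known PPAR targets. In microglia and other macrophages, lipid droplets hold surplus fatty acid as triglyceride and cholesteryl ester.

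The libraries held 33823181 to 40545305 counts. Counts were scaled to CPM, the count divided by the scaled library total, and 3 counts, the limit that a count of 0 allows, corresponded to 0.0743 to 0.0885 CPM. The 14 microglia and macrophage markers were all tested and summed to 8806 CPM with 6OHA, 8683 to 8751 CPM with BEX and 9054 CPM in untreated cells. Of these, 0 were higher and 4 lower with 6OHA, and 2 higher and 4 lower with BEX. So 28.6% were called with 6OHA and 42.9% with BEX, beside 14.8% and 13.6% of all tested genes. Of 6 adipocyte markers, Lep, Plin1, Cidec and Cfd had 0 counts in every library, and the list, nearly all Lipe, summed to 21.9 CPM with 6OHA, 27.3 to 29.8 CPM with BEX and 26.7 CPM in untreated cells. Astrocyte markers summed to 15.8 CPM with 6OHA, 17.9 to 20.5 CPM with BEX and 24.0 CPM in untreated cells, with Aqp4 at 0 in every library. Most of each sum was Aldh1l1, at 12.3 CPM with 6OHA, 15.3 ± 0.545 CPM with BEX (SD, n = 3) and 16.4 CPM in untreated cells. Of 7 such markers 3 were tested, and 1, Slc1a2, was called lower, at 3.04 CPM with 6OHA (log2 fold change -1.22, adjusted p = 0.00790), 3.33 ± 0.676 CPM with BEX (SD, n = 3, -1.09, adjusted p = 0.00236) and 7.08 CPM in untreated cells. Of the 9 fibroblast and endothelial markers Col1a1, Col1a2 and Col3a1 were at 0, and the list summed to 264 CPM with 6OHA, 240 to 251 CPM with BEX and 290 CPM in untreated cells. Kdr made up most of it, at 206 CPM with 6OHA, 180 ± 2.49 CPM with BEX (SD, n = 3) and 229 CPM in untreated cells. Of the 4 tested, Kdr was called lower with BEX (log2 fold change -0.35, adjusted p = 0.000216), and edgeR called 0 with 6OHA, with 1 (Kdr, -0.15, adjusted p = 0.0995) at an unadjusted p under 0.05. MG5 is a single line, and these sums do not show that other cell types were present. What part such cells have in the results was not tested. In each of these bulk libraries, fewer cells of a type and less RNA per cell cannot be told apart. With 1 library each for 6OHA and untreated cells, every test took its spread from the 3 BEX libraries and assumed that the lone libraries vary like them.

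The sequences below show the letters closest to a DR1 element before the starts of genes that rose (Plin2, Cd36, Hilpda) and of genes that did not (Plin3, Pnpla2). The 250 bases before each RefSeq start (GRCm38.p6) were searched on both strands for AGGTCANAGGTCA, where N is any base, so 12 letters can match. RefSeq promoters were matched for 7 of the 9 genes. An exact match occurred in 0.0335% of 32851 windows of 27025 genes, a match of at least 10 letters in 3.24%, of at least 9 in 21.3% and of at least 8 in 74.5%. Each line gives 29 bases on the gene's strand, 5′ to 3′, with the best DR1 match in capitals.
Plin2: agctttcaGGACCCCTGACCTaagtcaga
Cd36: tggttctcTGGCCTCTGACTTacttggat
Plin3: ctctgattGGCCCTCTGTCCTgtcactcc
Hilpda: gcgcctttTGGCTCCTGATCTtctagaag
Pnpla2: ttggatcgCGCGCCCAGGTCCtgccccct
The Plin2 site (chr4:86670264-86670292, minus strand) matched 10 letters, read on the opposite strand, and its first capital lies at position -225 from the start. The Cd36 site (chr5:17835939-17835967, minus strand) also matched 10 letters, at position -63. The windows of Cd36 and Cpt1a lie wholly inside the annotated genes, before a start within the gene. The Plin3 site (chr17:56290563-56290591, minus strand) matched 9 letters, the Hilpda site (chr6:29272424-29272452, plus strand) 8 and the Pnpla2 site (chr7:141455121-141455149, plus strand) 7. The best match before Cpt1a and before Slc25a20 had 8 letters, a number that most windows reach.

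The stretch upstream of Plin2 that lies outside the annotated gene is shown in full because Plin2 had the largest fold change of the 9 genes with either agonist (chr4:86670218-86670309, 92 bases, minus strand).
Plin2 upstream: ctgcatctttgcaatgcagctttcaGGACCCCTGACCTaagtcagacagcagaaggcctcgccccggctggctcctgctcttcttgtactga
The 250 bases before the first start of Hilpda are given for the gene next to it in fold change (chr6:29272238-29272487, plus strand).
Hilpda upstream: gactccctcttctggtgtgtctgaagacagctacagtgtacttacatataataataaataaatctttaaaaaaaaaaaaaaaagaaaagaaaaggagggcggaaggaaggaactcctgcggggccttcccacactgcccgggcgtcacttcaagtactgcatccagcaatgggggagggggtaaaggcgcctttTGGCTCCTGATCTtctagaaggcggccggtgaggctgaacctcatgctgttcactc
A single hexamer AGGTCA was found in the windows of Plin2, Cd36 and Cpt1a, and in 14.0% of all windows. For Plin2 these letters, read on the opposite strand, are part of the DR1 match already shown. For Cd36 and Cpt1a they lie outside the best match. The core letters ACGTG of hypoxia response elements, which are also part of the E-box CACGTG (6.02% of windows), occurred in 16.6% of all windows. Among the matched genes they were found only before the other start of Hilpda, at position -43. These matches describe letters, not bound sites.

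Both agonists raised 6 of the 9 genes over untreated cells: Plin2, Hilpda, Angptl4, Cpt1a, Slc25a20 and Cd36. With 6OHA, Plin3 was called lower and Lpl and Pnpla2 were not called. With BEX, Lpl was called lower and Plin3 and Pnpla2 were not called. A call is an adjusted p under 0.05 in the quasi-likelihood test of edgeR, with the Benjamini-Hochberg method over all 15462 genes. So 7 of 9 genes were called with 6OHA, where 14.8% of all genes were (7.59% higher and 7.19% lower), and 7 of 9 with BEX, where 13.6% were (7.55% higher and 6.03% lower). The 2 comparisons share the untreated library. The 9 genes were chosen with earlier results of these data known, so their contrast with all genes is a description and no test. The median log2 fold change of the 9 genes was 0.80 with 6OHA and 0.73 with BEX, beside -0.0031 with 6OHA and -0.0014 with BEX over all tested genes. Together the 9 genes took 0.311% of all counts in the 6OHA library (95% Wilson interval 0.309 to 0.312%), 0.282 to 0.285% in the BEX libraries and 0.14% in the untreated library (0.139 to 0.142%). These intervals cover counting error only. Plin2 alone took 0.175% with 6OHA, 0.156 to 0.158% with BEX and 0.043% in untreated cells.

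**Figure D1:**
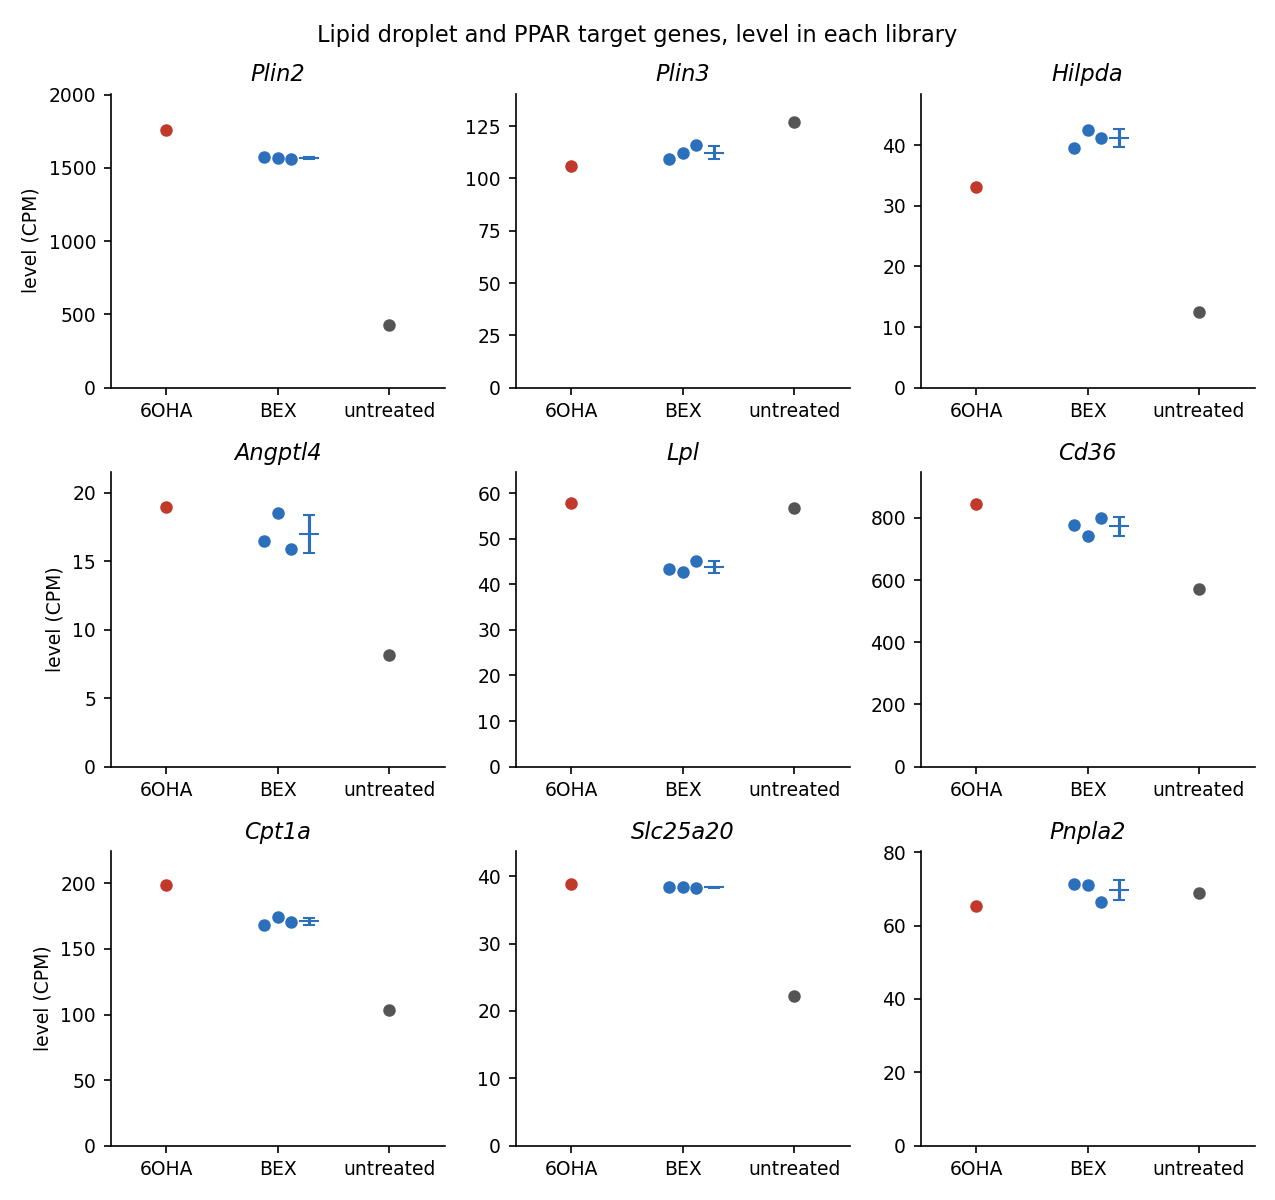
Level of each of the 9 genes in CPM (vertical axes, each starting at 0) in the 6OHA library, the 3 BEX libraries and the untreated library, 1 point per library, with the BEX mean and SD as a horizontal line with bars. The treated libraries lie above the untreated library for 6 genes, Plin2 by the most, while Lpl is lowest in the BEX libraries, Plin3 is highest in the untreated library and Pnpla2 in the untreated library falls within the BEX range.

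The droplet coat was described through Plin2 and Plin3. Plin2 (Entrez 11520, chr4:86626910-86670217, minus strand, GRCm38.p6) encodes perilipin 2, the main coat protein of droplets outside adipocytes. It stood at 1759 CPM with 6OHA, at 1577, 1571 and 1563 CPM in the BEX libraries and at 429 CPM in untreated cells. The 4 treated libraries were far above the untreated library, and the 6OHA library was above all 3 BEX libraries. Plin2 rose 4.10-fold with 6OHA (95% interval 3.85 to 4.37), or by 2.04 ± 0.04 (SE) on the log2 scale (adjusted p = 2.31e-11). With BEX it rose 3.66-fold (95% interval 3.48 to 3.86, adjusted p = 1.47e-11). An annotated pseudogene, Gm12551, overlaps Plin2, and reads of the pair cannot be told apart here, since the use of strand in counting is not given in the sources used here. Plin3 (Entrez 66905, chr17:56278962-56290511) encodes perilipin 3, a coat protein that moves between cytosol and young droplets. It stood at 106 CPM with 6OHA, at 109, 112 and 116 CPM with BEX and at 127 CPM in untreated cells, so every treated library was below the untreated one. Its log2 fold change was -0.26 ± 0.07 with 6OHA (adjusted p = 0.0235) and -0.17 ± 0.05 with BEX (adjusted p = 0.0539). The 6OHA call was lost in 3 of 12 alternative analyses (adjusted p 0.00372 to 0.0999). The BEX value passed in 5 of 13 (adjusted p 0.0252 to 0.161), among them those without BEX replicate 2 (adjusted p = 0.0286) or without BEX replicate 3 (adjusted p = 0.0252).

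Of 17 other genes of droplet coat and assembly 8 were tested. With 6OHA 0 of them were called higher and 2 lower, and with BEX 0 were called higher and 1 lower. So 25% were called with 6OHA and 12.5% with BEX, beside 14.8% and 13.6% of all genes. The median log2 fold change of the 8 genes was -0.01 with 6OHA and 0.01 with BEX. Plin1 and Plin5, the coat proteins of adipocytes and of oxidative tissues, had 0 counts in every library, as did Plin4, Cidea and Cidec. Bscl2, which encodes seipin, a protein of droplet assembly, stood at 15.1 CPM with 6OHA, 17.1 ± 0.201 CPM with BEX (SD, n = 3) and 21.7 CPM in untreated cells. It fell with both agonists (log2 fold change -0.52 with 6OHA, adjusted p = 0.00989, and -0.35 with BEX, adjusted p = 0.0232). The BEX call was lost in 4 of 13 alternative analyses (DESeq2, both TPM tests and no filter) and the 6OHA call in at least both TPM tests. Aup1, a droplet protein that also acts in protein degradation, fell with 6OHA by 0.27 on the log2 scale (adjusted p = 0.0113). Its value with BEX was -0.12 (adjusted p = 0.132). Bscl2 overlaps Gng3 and Aup1 overlaps Htra2 in the annotation.

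Pnpla2 and Hilpda act on the release of fatty acids from droplets. Pnpla2 (Entrez 66853, chr7:141455188-141460743) encodes adipose triglyceride lipase, which starts triglyceride breakdown. It stood at 65.2 CPM with 6OHA, at 71.5, 71.2 and 66.4 CPM with BEX and at 68.8 CPM in untreated cells. The untreated value lay inside the BEX range and the 6OHA value just below it. Its log2 fold change was -0.08 with 6OHA (95% interval -0.25 to 0.10, adjusted p = 0.600) and 0.02 with BEX (95% interval -0.12 to 0.16, adjusted p = 0.913). Hilpda (Entrez 69573, chr6:29272488-29275449) encodes a small droplet protein that inhibits adipose triglyceride lipase and is known as hypoxia-inducible. It stood at 33.0 CPM with 6OHA, at 39.6, 42.5 and 41.2 CPM with BEX and at 12.4 CPM in untreated cells. All treated libraries were above the untreated one, and the 3 BEX libraries were above the 6OHA library. Hilpda rose 2.66-fold with 6OHA (95% interval 2.23 to 3.17, adjusted p = 6.54e-06) and 3.31-fold with BEX (95% interval 2.84 to 3.86, adjusted p = 9.44e-08).

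Among 10 other lipolysis genes 7 were tested, with a median log2 fold change of 0.16 with 6OHA and 0.02 with BEX. With each agonist 1 was called higher and 0 lower (14.3%, beside 14.8% of all genes with 6OHA and 13.6% with BEX). That gene was Lipa, the acid lipase of lysosomes, at 490.4 CPM with 6OHA, 500.0 ± 9.31 CPM with BEX (SD, n = 3) and 328 CPM in untreated cells. Its log2 fold change was 0.58 with 6OHA (adjusted p = 1.27e-05) and 0.61 with BEX (adjusted p = 7.50e-07). Abhd5, the coactivator of adipose triglyceride lipase, had a log2 fold change of -0.09 with 6OHA (adjusted p = 0.569) and -0.19 with BEX (adjusted p = 0.109). Mgll, the monoglyceride lipase gene, lay between 0.590 and 1.08 CPM in the 5 libraries. G0s2, another inhibitor of adipose triglyceride lipase, had 2 counts in BEX replicate 3 and 0 in the other libraries. Lipe, the hormone-sensitive lipase gene, was not called against untreated cells with 6OHA (log2 fold change -0.28, adjusted p = 0.108) or BEX (0.11, adjusted p = 0.464).

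Lpl and Angptl4 form an enzyme and inhibitor pair. Lpl (Entrez 16956, chr8:68880555-68906932) encodes lipoprotein lipase, which frees fatty acids from circulating triglyceride. It stood at 57.9 CPM with 6OHA, at 43.3, 42.8 and 45.2 CPM with BEX and at 56.6 CPM in untreated cells. The 3 BEX libraries were below both lone libraries, which lay close together. The log2 fold change was 0.03 with 6OHA (95% interval -0.14 to 0.21, adjusted p = 0.863), and Lpl fell by 0.37 ± 0.07 on the log2 scale with BEX (adjusted p = 0.00220). The BEX call held in 11 of 13 alternative analyses (adjusted p 0.000229 to 0.0551). Angptl4 (Entrez 57875, chr17:33774900-33781575) encodes a secreted inhibitor of lipoprotein lipase and is a known PPAR target that hypoxia also induces. It stood at 19.0 CPM with 6OHA, at 16.5, 18.6 and 15.9 CPM with BEX and at 8.15 CPM in untreated cells. Among the BEX libraries Angptl4 varied more than the other 8 genes, with a coefficient of variation of 8.19%. It rose 2.33-fold with 6OHA (95% interval 1.83 to 2.96, adjusted p = 0.000250) and 2.08-fold with BEX (95% interval 1.68 to 2.57, adjusted p = 0.000138).

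Of 13 genes of lipoprotein lipase maturation and control 7 were tested. With 6OHA 2 were called higher and 2 lower, and with BEX 3 higher and 1 lower. So 57.1% were called with each agonist, beside 14.8% of all genes with 6OHA and 13.6% with BEX. The median log2 fold change of the 7 genes was 0.17 with 6OHA and 0.25 with BEX. Furin, a protease that cleaves lipoprotein lipase and its angiopoietin-like inhibitors, stood at 125 CPM with 6OHA, 125 ± 2.91 CPM with BEX (SD, n = 3) and 207 CPM in untreated cells. It fell by 0.73 on the log2 scale with both agonists (adjusted p = 1.05e-05 with 6OHA and 5.57e-07 with BEX). Apoc2, the cofactor that lipoprotein lipase needs, rose by 0.86 with 6OHA (adjusted p = 0.000654) and by 0.97 with BEX (adjusted p = 3.04e-05). Lrp1, a receptor that takes up lipoprotein remnants, rose by 0.50 with 6OHA (adjusted p = 0.000465) and by 0.32 with BEX (adjusted p = 0.00205). Lmf2 fell by 0.40 with 6OHA (adjusted p = 0.0129), and its value with BEX was -0.21 (adjusted p = 0.0864). Sel1l, which helps lipoprotein lipase leave the endoplasmic reticulum, rose by 0.20 with BEX (adjusted p = 0.0233), and its value with 6OHA was 0.17 (adjusted p = 0.0917). Gpihbp1, the endothelial anchor of lipoprotein lipase, had 0 counts in every library. Lmf2 and Sel1l are named to complete these counts, after their values were seen. Furin, Apoc2 and Lrp1 overlap predicted genes in the annotation.

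Cd36 (Entrez 12491, chr5:17781690-17888959) encodes a scavenger receptor that takes up long-chain fatty acids and oxidised lipoprotein. It stood at 846 CPM with 6OHA, at 778, 741 and 799.7 CPM with BEX and at 572 CPM in untreated cells, so treated and untreated libraries did not overlap. Cd36 rose 1.48-fold with 6OHA (95% interval 1.36 to 1.61, adjusted p = 2.80e-05) and 1.35-fold with BEX (95% interval 1.26 to 1.45, adjusted p = 3.09e-05). Of 17 other genes of fatty acid uptake and activation 14 were tested, with 2 called higher and 2 lower by each agonist and a median log2 fold change of -0.06 with 6OHA and -0.10 with BEX. So 28.6% were called with each agonist, beside 14.8% of all genes with 6OHA and 13.6% with BEX. Acsl3, an acyl-CoA synthetase that is known on growing droplets, stood at 122 CPM with 6OHA, 93.5 ± 2.77 CPM with BEX (SD, n = 3) and 69.6 CPM in untreated cells. It rose by 0.81 on the log2 scale with 6OHA (adjusted p = 1.27e-05) and by 0.43 with BEX (adjusted p = 0.000382). Acsl4, the synthetase that prefers arachidonate, rose by 0.48 with 6OHA (adjusted p = 0.000303) and by 0.20 with BEX (adjusted p = 0.0192). Fabp3, a fatty acid binding protein gene, fell with 6OHA by 0.69 (adjusted p = 0.0186) and had a value of -0.40 with BEX (adjusted p = 0.0684). Acsl1, the synthetase that is a classical PPAR target in liver and fat, fell with BEX by 0.26 (adjusted p = 0.00500) and had a value of -0.13 with 6OHA (adjusted p = 0.195). The annotation places Utp14b over Acsl3 and Zcchc17 over Fabp3. Slc27a4, a fatty acid transporter gene named to complete the counts after its value was seen, was called lower with 6OHA (-0.28). Its value with BEX was -0.14, not called. Fabp5 had a value of -0.15 with 6OHA, not called. Fabp5 fell with BEX by 0.22 (adjusted p = 0.0122), and Slc27a1, a fatty acid transporter, was not called with 6OHA (-0.08, adjusted p = 0.416) or BEX (-0.13, adjusted p = 0.101).

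Cpt1a and Slc25a20 serve the entry of fatty acids into mitochondria. Cpt1a (Entrez 12894, chr19:3322326-3385735) encodes carnitine palmitoyltransferase 1A, the rate-limiting step of this import. It stood at 199 CPM with 6OHA, at 168, 174 and 171 CPM with BEX and at 103 CPM in untreated cells. Cpt1a rose 1.93-fold with 6OHA (95% interval 1.76 to 2.12, adjusted p = 9.28e-07) and 1.66-fold with BEX (95% interval 1.53 to 1.79, adjusted p = 8.77e-07). The annotated long non-coding RNA Gm36532, which overlaps Cpt1a, was listed at 0 counts in every library. Slc25a20 (Entrez 57279, chr9:108662136-108684642) encodes the carnitine-acylcarnitine carrier of the inner mitochondrial membrane. It stood at 38.9 CPM with 6OHA, at 38.4, 38.4 and 38.3 CPM with BEX and at 22.3 CPM in untreated cells, so the 4 treated libraries were nearly level. Slc25a20 rose 1.75-fold with 6OHA (95% interval 1.51 to 2.02, adjusted p = 0.000137) and 1.72-fold with BEX (95% interval 1.53 to 1.95, adjusted p = 2.14e-05).

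The other 8 genes of the carnitine shuttle were all tested, and edgeR called 0 of them with either agonist. At an unadjusted p under 0.05 the count was 1 with each agonist, Cpt1c, while DESeq2 called 0 with both and limma-voom called 0 with 6OHA and 1 with BEX. Cpt1c, the form of the enzyme known from brain, had 9 counts with 6OHA, 8, 8 and 17 with BEX and 0 in untreated cells. Set against the 3 counts that a 0 allows in the untreated library, its level was 3.09-fold higher with 6OHA and 3.47-fold higher with BEX. This bound takes the treated counts as observed and leaves out their own counting error. The median log2 fold change of the 8 genes, with Cpt1c at that bound, was -0.04 with 6OHA and 0.01 with BEX. Cpt2, the enzyme that acts after the carrier, stood at 20.4 CPM with 6OHA, 20.8 ± 0.559 CPM with BEX (SD, n = 3) and 20.7 CPM in untreated cells.

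**Figure D2:**
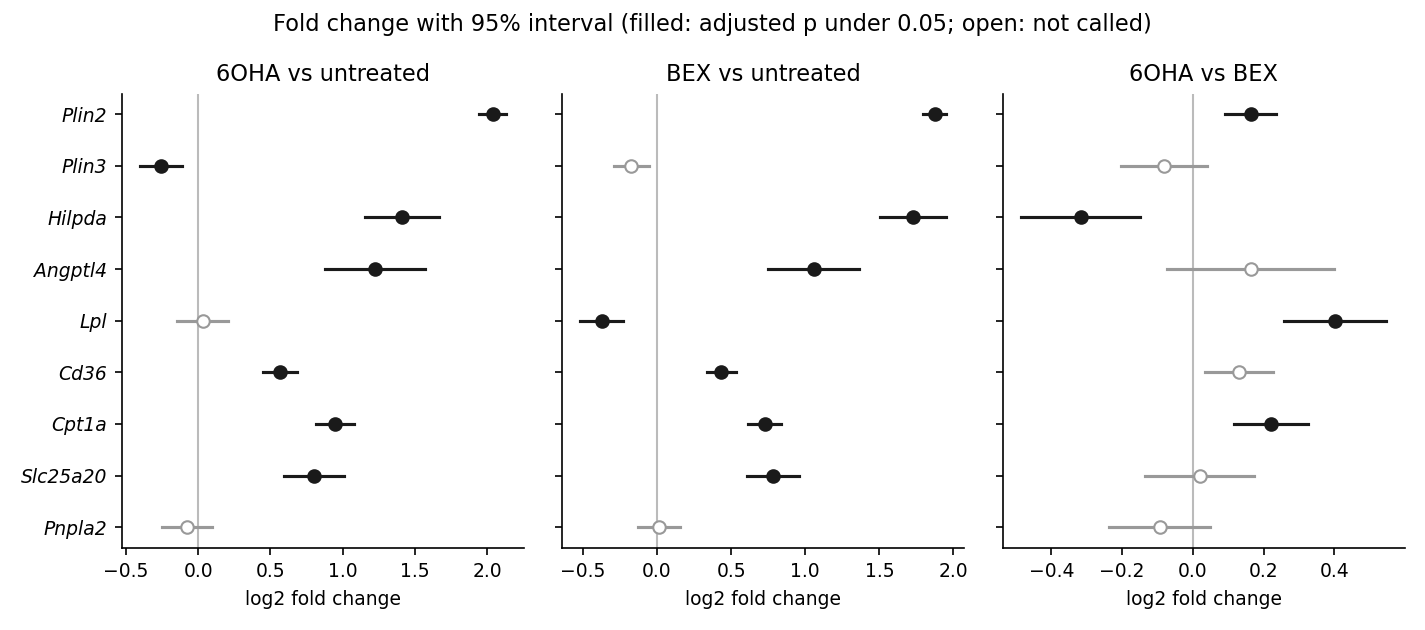
Log2 fold change (horizontal axes) of each of the 9 genes for 6OHA vs untreated, BEX vs untreated and 6OHA vs BEX, with 95% intervals from the edgeR fit; filled points were called at an adjusted p under 0.05 and open points were not. Plin2 is the largest change with both agonists (2.04 and 1.87), and Lpl has the largest value between the agonists (0.40).

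Set against each other at 10 µM and 6 h, the agonists differed in 4 of the 9 genes. Lpl, Cpt1a and Plin2 were higher with 6OHA and Hilpda was lower with 6OHA, beside a call rate of 6.53% over all tested genes (2.4% in the higher and 4.13% in the lower direction). The 9 differences were adjusted over all 15462 genes. Lpl differed most, with a log2 fold change of 0.40 ± 0.07 (95% interval 0.26 to 0.55, adjusted p = 0.00389). The value was 0.22 ± 0.05 for Cpt1a (adjusted p = 0.0172), 0.16 ± 0.03 for Plin2 (adjusted p = 0.0118) and -0.32 ± 0.08 for Hilpda (adjusted p = 0.0298). The differences in Plin2 and Hilpda are small beside the response of these 2 genes to either agonist. This does not hold for Lpl, whose log2 fold change against untreated cells was -0.37 with BEX and 0.03 with 6OHA. The lone 6OHA library lay outside the range of the 3 BEX libraries in all 9 genes, above it in 6 and below it in 3, while 64.9% of all tested genes lay outside (32.4% above and 32.5% below). Over 13 alternative analyses the call held in 11 for Lpl (adjusted p 0.000161 to 0.0731), 10 for Cpt1a (0.00131 to 0.0974), 10 for Plin2 (0.000313 to 0.114) and 8 for Hilpda (0.0166 to 0.105).

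The other 5 genes were not called between the agonists, and their intervals say how large a difference these libraries leave room for. For Slc25a20 the 95% interval of the log2 fold change was -0.14 to 0.17 (adjusted p = 0.922). It was -0.24 to 0.05 for Pnpla2 (adjusted p = 0.472) and -0.20 to 0.04 for Plin3 (adjusted p = 0.451). It was wider for Angptl4, at -0.07 to 0.40 (adjusted p = 0.441). For Cd36 it was 0.03 to 0.23 (adjusted p = 0.106), and the difference was called without BEX replicate 3 (adjusted p = 0.0320, range over 13 alternatives 0.0320 to 0.297). Among related genes, Acsl3 was higher with 6OHA than with BEX by 0.39 (adjusted p = 0.00162) and Acsl4 by 0.27 (adjusted p = 0.00709), and Lipe was lower by 0.39 (adjusted p = 0.0217). Of the lists of droplet coat, lipoprotein lipase control and carnitine shuttle genes edgeR called 0 genes between the agonists, with 1, 2 and 0 at an unadjusted p under 0.05, and DESeq2 and limma-voom called 0 in each.

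**Figure D3:**
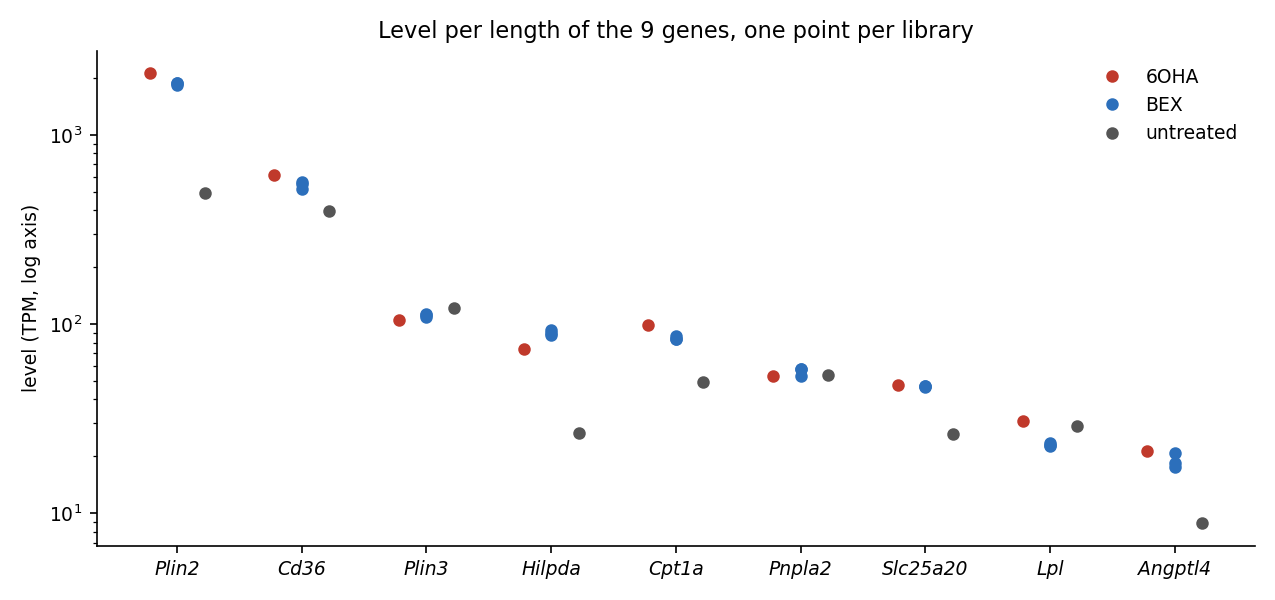
Deposited TPM (a level per transcript length, log axis) of the 9 genes, ordered by their BEX mean, 1 point per library for 6OHA, BEX and untreated cells from left to right. Plin2 and Cd36 stand above the other 7 genes in every library, and Hilpda lies above Pnpla2 in the treated libraries and below Lpl in untreated cells.

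Per transcript length, in the deposited TPM, Plin2 was the most abundant of the 9 genes in every library, at 2125 TPM with 6OHA, 1877 ± 24.6 TPM with BEX (SD, n = 3) and 494 TPM in untreated cells. Cd36 came next, at 614 TPM with 6OHA, 546 ± 22.1 TPM with BEX and 395 TPM in untreated cells. Plin3 followed in each group, at 106 TPM with 6OHA, 111 ± 2.39 TPM with BEX and 122 TPM in untreated cells. In BEX libraries the order went on with Hilpda (90.3 ± 2.29 TPM), Cpt1a (84.8 ± 1.72), Pnpla2 (56.4 ± 2.78), Slc25a20 (46.9 ± 0.468), Lpl (23.0 ± 0.461) and Angptl4 (19.0 ± 1.67). No neighbours in this order had overlapping ranges over the 3 BEX libraries. The order differed in the lone libraries, whose neighbours have no spread of their own. With 6OHA Cpt1a (99.5 TPM) stood above Hilpda (73.6 TPM). In untreated cells Pnpla2 (54.1 TPM) came after Plin3, followed by Cpt1a (49.7), Lpl (29.0), Hilpda (26.7) and Slc25a20 (26.4), and Angptl4 (8.86) was last.

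The receptors themselves were measured unevenly. Ppara and Pparg had 0 counts in every library. Ppard, the third PPAR gene, stood at 32.5 CPM with 6OHA, 31.4 to 39.4 CPM with BEX and 41.2 CPM in untreated cells. It was not called with 6OHA (log2 fold change -0.34, adjusted p = 0.0934) or BEX (-0.22, adjusted p = 0.186). Rxra, an RXR gene, was not called with 6OHA (-0.19, adjusted p = 0.0554) or BEX (-0.09, adjusted p = 0.259). Of 15 genes of PPARs, their partners and coactivators 11 were tested, with 3 higher and 1 lower with 6OHA and 3 higher and 0 lower with BEX. So 36.4% were called with 6OHA and 27.3% with BEX, beside 14.8% and 13.6% of all genes. The median log2 fold change of the 11 genes was -0.02 with 6OHA and 0.14 with BEX. Ncoa3, a nuclear receptor coactivator, rose by 0.41 with 6OHA (adjusted p = 0.000667) and by 0.40 with BEX (adjusted p = 0.000126). Ncor1, a corepressor, rose by 0.26 with 6OHA (adjusted p = 0.0210) and by 0.21 with BEX (adjusted p = 0.0243). Med1, a Mediator subunit that nuclear receptors bind, rose by 0.29 with 6OHA (adjusted p = 0.0133), and Nrip1, a corepressor, by 0.31 with BEX (adjusted p = 0.0247). Rxrb, named to complete the count after its value was seen, fell by 0.33 with 6OHA (adjusted p = 0.0454). With the other agonist the values, none of them called, were 0.14 for Med1 and -0.03 for Rxrb with BEX, and 0.24 for Nrip1 with 6OHA. Between the agonists edgeR called 0 of the 11, with 3 at an unadjusted p under 0.05 and 0 by DESeq2 or limma-voom.

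Of 33 other known PPAR targets 20 were tested, with 1 higher and 2 lower with 6OHA (15% called) and 1 higher and 1 lower with BEX (10% called), beside 14.8% and 13.6% of all genes. The median log2 fold change of these targets was 0.08 with 6OHA and 0.025 with BEX. For it Creb3l3, which had 0 counts in untreated cells, was set against 3 counts or left out. Pdk4, a strong PPAR target in liver and muscle, had 0 counts in every library. Fabp4, a PPAR target in fat and macrophages, fell by 0.59 with BEX (adjusted p = 0.00207) and had a value of -0.34 with 6OHA (adjusted p = 0.0995). Acaa1a and Acaa1b, peroxisomal thiolases that are near-identical copies and so uncertain, were called lower with 6OHA (-0.55, adjusted p = 0.000628, and -0.58, adjusted p = 0.0329).

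**Figure D4:**
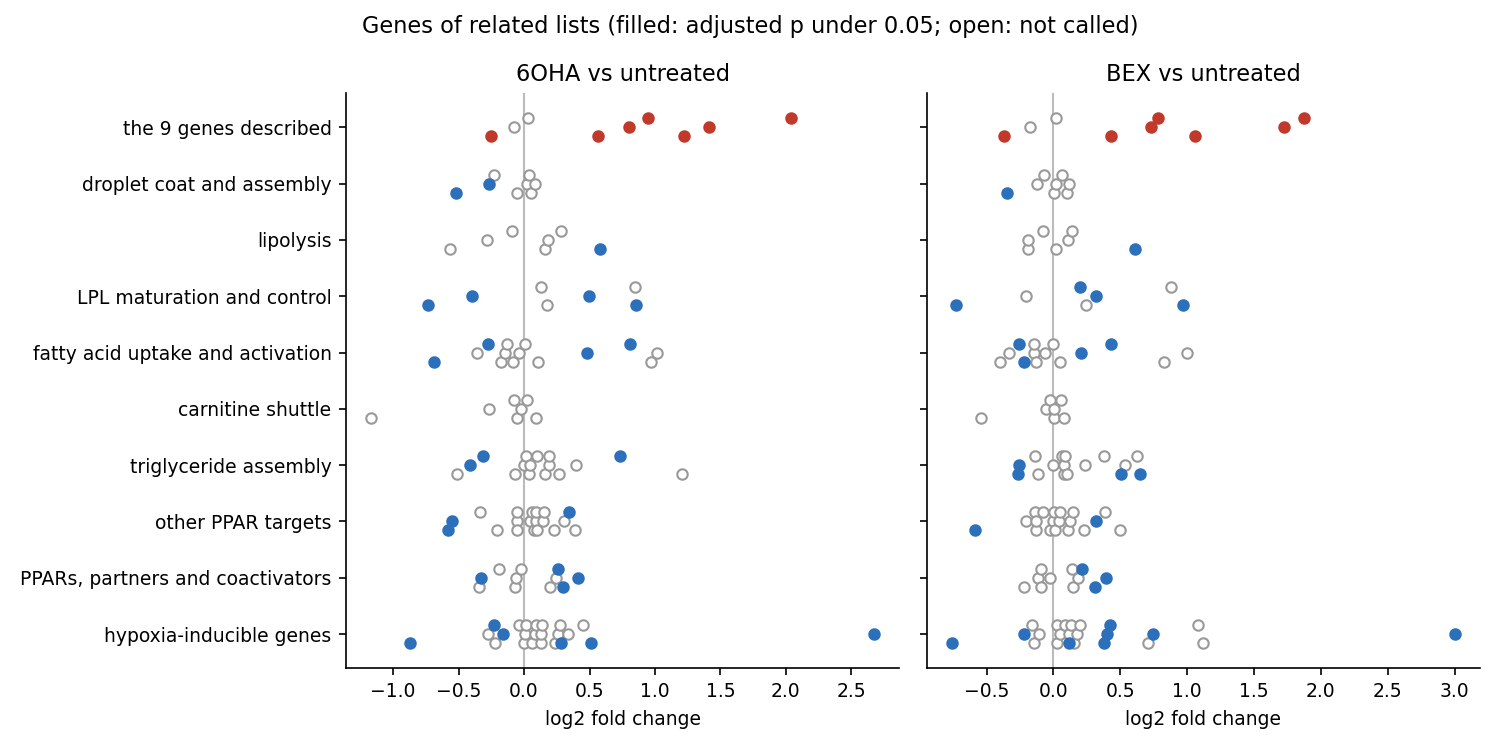
Log2 fold change (horizontal axes) of every tested gene of the 9 genes and of the 9 related lists, for 6OHA vs untreated on the left and BEX vs untreated on the right; filled points were called at an adjusted p under 0.05, and Cpt1c and Creb3l3, with 0 counts in untreated cells, are left out. Most points of the related lists are open and lie near 0, and Vegfa is the point farthest to the right in each panel (2.67 and 3.00).

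Because Hilpda and Angptl4 are also hypoxia-inducible, 24 other hypoxia-inducible genes were examined. Of 23 tested, 3 were higher and 3 lower with 6OHA, and 6 were higher and 2 lower with BEX. So 26.1% were called with 6OHA and 34.8% with BEX, beside 14.8% and 13.6% of all genes. Vegfa, which encodes a vascular growth factor, stood at 122 CPM with 6OHA, 153 ± 2.74 CPM with BEX (SD, n = 3) and 19.1 CPM in untreated cells. It rose by 2.67 on the log2 scale with 6OHA (adjusted p = 6.93e-10) and by 3.00 with BEX (adjusted p = 3.24e-11). Like Hilpda it was lower with 6OHA than with BEX (log2 fold change -0.33, adjusted p = 0.00322). Ero1l, an oxidase of the endoplasmic reticulum, rose by 0.28 with 6OHA (adjusted p = 0.0270) and by 0.43 with BEX (adjusted p = 0.000510). Hk2, a hexokinase, rose by 0.40 with BEX (adjusted p = 0.000191), had a value of 0.02 with 6OHA (adjusted p = 0.914) and was lower with 6OHA than with BEX by 0.39 (adjusted p = 0.00116). Bnip3, a mitophagy receptor named after its values were seen, rose by 0.51 with 6OHA (adjusted p = 0.0451) and by 0.74 with BEX (adjusted p = 0.00149). Ndrg1, a stress-induced gene, fell by 0.87 with 6OHA (adjusted p = 0.0192) and by 0.76 with BEX (adjusted p = 0.00983). Slc2a1, a glucose transporter, fell by 0.23 with 6OHA (adjusted p = 0.0259), had a value of 0.03 with BEX (adjusted p = 0.804) and was lower with 6OHA than with BEX by 0.26 (adjusted p = 0.0115). The median log2 fold change of the 23 genes was 0.09 with 6OHA and 0.13 with BEX.

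The genes whose pattern was most like that of Plin2 were found by the root mean square difference from Plin2 in log2 CPM minus the untreated library, over the 4 treated libraries. Among the closest were Adap2 (0.20), Ighm (0.28), Cxcl14 (0.29) and Pitpnc1 (0.29). Between the agonists the signs of their values differed. Plin2 (log2 fold change 0.16) was called higher with 6OHA than with BEX, and Pitpnc1 (-0.51) was called lower. The values of Ighm (0.30), Adap2 (-0.27) and Cxcl14 (-0.50) were not called. Adap2 stood at 29.2 CPM with 6OHA, 35.2 ± 1.28 CPM with BEX (SD, n = 3) and 8.63 CPM in untreated cells. Among the 9 genes Hilpda came closest to Plin2 (0.34), followed by Angptl4 (0.83), Slc25a20 (1.13) and Cpt1a (1.13), and Lpl was farthest (2.19). These distances all use the same untreated library and are descriptions with no test.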

How the data were processed

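Poly-A RNA of MG5 cells was sequenced as stranded libraries in 3 groups: 6OHA (replicate 2 alone), BEX (replicates 1, 2 and 3) and untreated (replicate 3 alone). The authors deposited whole-number read counts, FPKM and TPM per gene in 1 table. The submitters' processing notes name mm10, HISAT2 2.1.0, Bowtie2, StringTie 2.1.3b, SAMtools 1.9, bcl2fastq 2.20.0 and Trimmomatic 0.38. What each did, and whether counting used strand, is not given in the sources used here. Tests used the deposited counts, while the deposited TPM served levels per length and 2 alternative tests, and the deposited FPKM were not used.

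All 5 libraries entered a single edgeR 4.0.16 quasi-likelihood fit (R 4.3.3) with TMM factors. Genes were filtered with filterByExpr (minimum count 10, minimum total 15). Tests were two-sided, with Benjamini-Hochberg adjustment at 0.05. Residual degrees of freedom were 2, all from the BEX libraries, with 10.6 prior degrees of freedom. Standard errors and 95% intervals came from the same fit. The scripts were tested on simulated data. Library totals lay between 33823181 and 40545305 counts. Gene positions and promoters came from RefSeq GRCm38.p6.

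The 9 genes, 9 related lists and 4 marker lists (microglia and macrophage, astrocyte, adipocyte, fibroblast and endothelial) were chosen with earlier results of these data known. Named were the 9 genes, a list of anchor genes whatever their values, up to 3 called genes with the smallest adjusted p per related list and contrast, and the 5 genes most like Plin2. Some genes that this rule names are not reported here. Where a count was 5 or fewer, further genes were named after their values were seen. Alternative analyses used DESeq2 1.42.0, RLE factors, limma-voom, limma-trend on log2(TPM + 1) or log2(TPM + 0.1) (limma 3.58.1), no filter, a mean of at least 20 counts, GC and length offsets, leaving out each BEX library, only the compared groups and, added after seeing the data, the older edgeR quasi-likelihood method.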

Additional observations from a re-analysis of the deposited data

How the results depend on the processing

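Plin2, Hilpda, Angptl4, Cpt1a, Slc25a20 and Cd36 were called higher than in untreated cells in all 12 alternatives for 6OHA and all 13 for BEX. The number of the 9 genes called was 6 to 7 for 6OHA and 6 to 8 for BEX. Between the agonists 4 were called, against 0 with log2(TPM + 1), 0 with log2(TPM + 0.1) and 1 (Lpl) with no filter, and 4 to 5 when each BEX library was left out. Over all genes, 6OHA vs untreated called 2285, against 785 with log2(TPM + 1), 869 with log2(TPM + 0.1), 1134 with no filter and 1312 with GC and length offsets, and 2287 to 3226 with 1 BEX library left out. BEX vs untreated called 2101, against 908, 975 and 1216 in the first 3 of these settings and 1841 to 2814 with 1 BEX library left out. 6OHA vs BEX called 1010, against 85, 144 and 190, and 867 to 1660 with 1 left out, the highest without BEX replicate 2. The share called higher was 51.3% for 6OHA vs untreated (62.2% and 62.4% with TPM), 55.6% for BEX vs untreated (67.7% and 70.1%) and 36.7% for 6OHA vs BEX (24.7% and 25.7% with TPM, 57.8% with GC and length offsets).

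Log2 fold changes that changed sign, none of them called, were Lpl (-0.034) and Pnpla2 (0.1255) for 6OHA vs untreated and Pnpla2 (0.0843) for 6OHA vs BEX with GC and length offsets, and Pnpla2 for BEX vs untreated without BEX replicate 2 (-5e-04, against up to 0.0545 with another BEX library left out). Hilpda between the agonists was not called by DESeq2 (adjusted p = 0.0858) or the older edgeR method (adjusted p = 0.0540). Counts of called genes in the related lists moved by over 1.5 times in some alternatives. For 6OHA vs untreated, hypoxia-inducible genes ranged from 1 to 8 (6 in the report), PPARs and partners from 1 to 6 (4), uptake and activation from 2 to 6 (4), triglyceride assembly from 0 to 4 (3), other PPAR targets from 2 to 5 (3), droplet coat from 0 to 2 (2) and lipolysis from 1 to 2 (1). For BEX they ranged from 4 to 12 (8), 1 to 4 (3), 1 to 6 (4), 1 to 4 (4), 2 to 5 (2), 0 to 1 (1) and 1 to 2 (1) in the same order, with lipoprotein lipase control from 2 to 5 (4) and carnitine shuttle from 0 to 1 (0). Between the agonists they ranged from 0 to 5 (3), 0 to 2 (0), 0 to 3 (2), 0 to 3 (2), 0 to 1 (1), 0 to 0 (0) and 0 to 1 (1), with lipoprotein lipase control from 0 to 1 (0). The cause was not tested.

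Only the compared groups could not be fitted for 6OHA vs untreated, which has no residual degrees of freedom. No paired analysis was possible because the compared groups share fewer than 2 replicate numbers. Genes with few counts are limited by depth, since a count of 0 leaves room for up to 0.0885 CPM.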

Other observations

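Triglyceride and cholesteryl ester assembly was not described above. Of 17 such genes 16 were tested, with 1 higher and 2 lower with 6OHA, 2 higher and 2 lower with BEX, and a median log2 fold change of 0.07 with 6OHA and 0.08 with BEX. So 18.8% were called with 6OHA and 25% with BEX, beside 14.8% and 13.6% of all genes. Soat2, which esterifies cholesterol, stood at 15.2 CPM with 6OHA, 23.2 ± 1.83 CPM with BEX (SD, n = 3) and 14.8 CPM in untreated cells. It rose by 0.65 on the log2 scale with BEX (adjusted p = 0.00162), had a value of 0.04 with 6OHA (adjusted p = 0.912) and was lower with 6OHA than with BEX by 0.61 (adjusted p = 0.00734). Its relative Soat1 was higher with 6OHA than with BEX by 0.17 (adjusted p = 0.0484). Dgat1, an enzyme of the last step of triglyceride synthesis, rose by 0.50 with BEX (adjusted p = 0.00806) and had a value of 0.19 with 6OHA (adjusted p = 0.421). Dgat2, which catalyses the same step, was not called with 6OHA (-0.51, adjusted p = 0.538) or BEX (0.08, adjusted p = 0.924). Lpin1, a phosphatidate phosphatase, rose by 0.73 with 6OHA (adjusted p = 0.0321). Agpat1 and Agpat2, acyltransferases of an earlier step, fell with 6OHA (-0.32, adjusted p = 0.0158, and -0.41, adjusted p = 0.0159) and with BEX (-0.26, adjusted p = 0.0141, and -0.27, adjusted p = 0.0417). The value of Lpin1 with BEX was 0.53, not called. Agpat1 overlaps Egfl8 and Lpin1 overlaps Ntsr2 in the annotation.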
